A study of Mus musculus with 35 samples.

Results

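The 41 genes described here encode regulators of chromatin and DNA methylation: the KMT2 methyltransferases with menin and their elongation partners (10 genes), acetyltransferases (2), deacetylases (3), histone demethylases (5), Polycomb and ASXL-BAP1 genes (8), DNA methylation, TET and IDH genes (8), and SWI/SNF, H3K36 methyltransferase and PHF6 genes (5). They were taken by symbol from a list of regulator genes drawn up with earlier results of these data known, with no threshold on a measured value, and all 41 were found among 21887 protein-coding genes with a position in the mouse genome mm10. The study profiled 3 histone marks by ChIP-seq in bone marrow cells of C57BL/6 mice. Lineage-negative haematopoietic stem and progenitor cells (HSPC), obtained by depletion of lineage-positive cells, came from wild-type (WT) mice, from mice with the Npm1c mutation, from mice with Flt3-ITD and from mice labelled DM, read here as the double mutant of both. Neutrophils of WT mice, enriched with an isolation kit, were the fifth group. Each group had 2 libraries per mark, numbered as replicates. The labels do not say whether they came from separate mice, so p-values measure only the spread between these libraries, which may be technical. The sources used here give neither the zygosity of the alleles, how and when they were induced, the age and sex of the mice, nor whether animals were pooled. Wild-type HSPC were the reference for each mutant and for neutrophils.

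Some of these proteins write or erase the marks that were profiled, while others act elsewhere, for example on DNA methylation, other histone marks or elongation. Kmt2c and Kmt2d place H3K4me1 at enhancers, Kmt2a and Kmt2b act at promoters and other regulatory sites, and Ep300 and Crebbp acetylate H3K27. Kdm6a and Kdm6b remove methyl groups from H3K27, which Ezh1 and Ezh2 place, with Eed and Suz12 as partners in Polycomb repressive complex 2. Many of these genes, among them Dnmt3a, Tet2, Asxl1, Idh1, Idh2, Ezh2, Kdm6a and Phf6, are recurrently mutated in human myeloid leukaemia, and menin and DOT1L inhibitors have been studied in leukaemia with mutated NPM1. H3K4me3 marks active starts of transcription, H3K4me1 marks enhancers and the flanks of starts, and H3K27ac marks active enhancers and starts.

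Coverage was the kb of a gene's window that lay under a library's peaks. The window was the RefSeq gene span, widened at both ends by 10 kb for H3K27ac and H3K4me1 and by 5 kb for H3K4me3, so it can hold regions of neighbouring genes. Peak lists held 21709 to 30150 peaks for H3K27ac, 102927 to 131205 for H3K4me1 and 30310 to 39320 for H3K4me3. The files carry neither read counts nor scores, so sequencing depth is unknown. The 2 H3K27ac libraries of Npm1c HSPC held the most peaks, 29052 and 30150, against 22065 and 21709 in WT HSPC. The DM pair differed, with 27376 peaks in replicate 1 and 21910 in replicate 2, and the Npm1c pair for H3K4me1 held 102927 and 125709. For H3K4me1 the WT HSPC lists held 122876 and 131205 peaks, beside 104761 and 109371 in DM and 110229 and 110503 in neutrophils. The base-pair Jaccard index of the 2 replicates, the shared over the combined length of their peaks, ran from 0.614 in DM to 0.813 in WT HSPC for H3K27ac. In bulk chromatin, fewer cells carrying a mark and less of the mark per cell cannot be told apart.

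Markers of the labelled cell types were checked in the same way. The 8 HSPC markers (among them Kit, Cd34 and Meis1) were all under H3K27ac peaks in both libraries of WT, Npm1c and Flt3-ITD HSPC, 7 of 8 were in DM, where Gata2 was at 0, and 2 of 8 were in neutrophils. Their summed H3K27ac was 13.9 and 14.2 kb in WT, 60.5 and 70.2 kb in Npm1c, 31 and 33.9 kb in Flt3-ITD, 54.1 and 33.4 kb in DM and 9.82 and 10.6 kb in neutrophils, so all mutant libraries lay above WT. All 10 neutrophil markers carried H3K27ac in neutrophils, with 35.7 and 38.5 kb in sum, and the 8 HSPC libraries held 2.25 to 5.06 kb. Erythroid markers separated DM from the other HSPC: 10 of 10 were covered in WT HSPC, with 43.1 and 42.1 kb of H3K27ac, and 4 of 10 in DM, with 3.83 and 2.65 kb. Car1, Gata1 and Gfi1b were among those at 0 in both DM libraries. Flt3-ITD HSPC held 22.4 and 32.5 kb and Npm1c HSPC 66.7 and 47.5 kb. H3K4me1 of the erythroid markers was 82.8 and 79.8 kb in WT and 41.5 and 42.5 kb in DM. That of the HSPC markers was 159 and 160 kb in WT and 115 and 137 kb in DM. That of the neutrophil markers was 66 and 65.7 kb in WT and 47 and 47.8 kb in DM. The 6 monocyte and macrophage markers held 1.32 and 0.846 kb of H3K27ac in WT and 8.95 and 3.36 kb in DM, with Ly6c2 and Adgre1 at 0 in both groups. The 6 B-lymphoid markers went the other way from the erythroid list in H3K4me1, with 39.7 and 38.2 kb in WT and 49.9 and 52.6 kb in DM, as did the 6 T and NK cell markers, with 19.8 and 23.9 kb and 29.6 and 29.3 kb. The part of these differences in the results on the mutants and on neutrophils below was not tested.

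The regulator genes were broadly marked in WT HSPC. H3K27ac covered 40 of 41 in both WT libraries, beside 54.2% of all genes, and H3K4me1 and H3K4me3 covered 41 of 41, beside 76.3% and 70.3%. The median over the members was 2.11 kb of H3K27ac, 11 kb of H3K4me1 and 2 kb of H3K4me3, and over all genes 0.502, 4.16 and 1 kb. Arid1a, a DNA-binding subunit of SWI/SNF, held the most H3K27ac in WT HSPC with 7.33 and 7.17 kb. Tet1, which oxidises 5-methylcytosine, held the least, with 0.207 and 0 kb, and a peak was called in only 3 of its 10 libraries. For H3K4me1 the order ran from Aff1, a scaffold of the super elongation complex, with 50 and 51 kb, to Phf6, an X-linked nucleolar and chromatin protein, with 1 and 2 kb. Aff1 also held the most H3K4me3, 8 and 8 kb, and several members held a single 1 kb peak in every WT library. Longer genes have longer windows, so these are totals per gene and not densities.

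Peaks at the start of transcription were present in most libraries. A start and strand were listed in RefSeq (GRCm38.p6) for 34 of the 41 genes. H3K4me3 lay within 1 kb of a listed start in all 10 libraries for 34 of 34, beside 57.7% of 17492 genes. H3K27ac did so for 30 of 34, beside 39.3%, and the exceptions were Bmi1 and Dnmt3b with 8 libraries, Tet3 with 5 and Tet1 with 1. H3K4me1 did so for 17 of 34, beside 47.0%, and no library had an H3K4me1 peak within 1 kb of the starts of Kmt2c, Kmt2d and Ep300. These counts take presence alone, and the length covered at the start varied with the group for several members, among them Idh2, Dnmt3a, Dnmt3b, Bmi1, Arid1a and Kdm2b, whose values are given below. Peaks of the 10 libraries were then merged into regions. Of 36 merged H3K27ac regions over a listed start, 31 had a peak in all 10 libraries and none in a single library. Of 136 H3K27ac regions elsewhere in the windows, 24 were in all 10 and 51 in 1. For H3K4me3, 32 of 33 regions over a start and 36 of 142 elsewhere were in all 10.

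**Figure D1:**
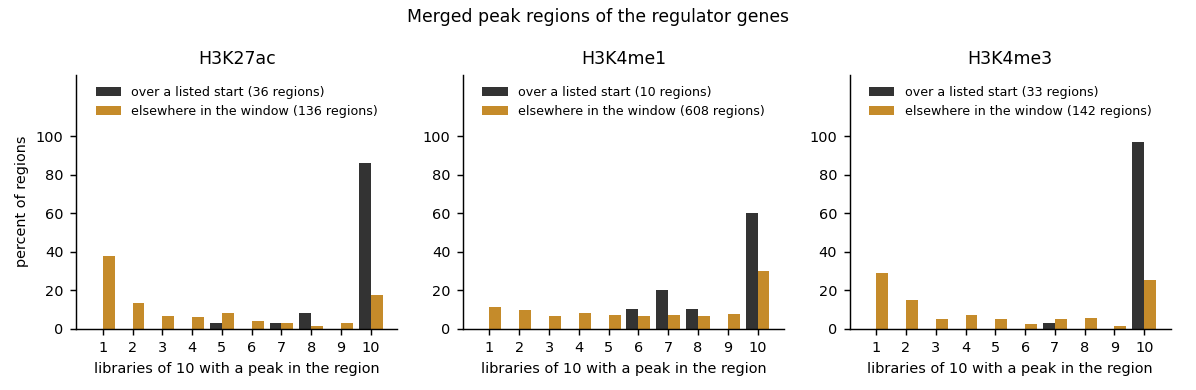
Share of merged peak regions (percent, vertical axis) by the number of the 10 libraries of a mark with a peak in the region (horizontal axis), for regions over a listed start (dark bars) and elsewhere in the windows of the 34 genes with a listed start (light bars). For H3K27ac, 31 of 36 regions over a start and 24 of 136 elsewhere were seen in all 10 libraries.

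Promoter sequences of 6 members are printed to set the start beside the change over the whole window: the windows of Kdm2b and Dnmt1 had the largest H3K27ac rises against WT HSPC among members with a listed start, those of Dnmt3b and Ezh1 the largest falls, and Crebbp and Kmt2c carried H3K27ac at the start in all 10 libraries with little spread. For Dnmt1 and Ezh1 the change lay in other regions of the window and not at the printed start. Each is 300 bases from RefSeq, 250 before and 50 after the listed start, read 5′ to 3′ on the gene's strand, at chr5:122989050-122989349 (reverse strand), chr9:20952574-20952873 (reverse strand), chr2:153649199-153649498 (forward strand), chr11:101226414-101226713 (reverse strand), chr16:4213355-4213654 (reverse strand) and chr5:25498734-25499033 (reverse strand) of GRCm38.p6. Capitals mark GGGCGG or its complement CCGCCC, a GC box, with overlapping matches run together, and CCGGAAG or CTTCCGG, an ETS-type site, of which these 6 hold none.
Kdm2b: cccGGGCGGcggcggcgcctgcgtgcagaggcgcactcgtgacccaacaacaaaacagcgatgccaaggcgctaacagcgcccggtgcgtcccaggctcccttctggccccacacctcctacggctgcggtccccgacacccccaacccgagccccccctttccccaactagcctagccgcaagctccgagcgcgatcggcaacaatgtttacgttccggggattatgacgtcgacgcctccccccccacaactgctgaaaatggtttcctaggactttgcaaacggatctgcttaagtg
Dnmt1: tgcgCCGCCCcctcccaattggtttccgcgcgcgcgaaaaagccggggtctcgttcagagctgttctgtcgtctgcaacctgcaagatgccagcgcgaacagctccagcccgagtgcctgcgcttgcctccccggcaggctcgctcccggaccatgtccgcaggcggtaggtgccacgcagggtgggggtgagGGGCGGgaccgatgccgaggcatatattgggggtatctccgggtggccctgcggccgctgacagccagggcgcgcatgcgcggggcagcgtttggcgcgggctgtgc
Dnmt3b: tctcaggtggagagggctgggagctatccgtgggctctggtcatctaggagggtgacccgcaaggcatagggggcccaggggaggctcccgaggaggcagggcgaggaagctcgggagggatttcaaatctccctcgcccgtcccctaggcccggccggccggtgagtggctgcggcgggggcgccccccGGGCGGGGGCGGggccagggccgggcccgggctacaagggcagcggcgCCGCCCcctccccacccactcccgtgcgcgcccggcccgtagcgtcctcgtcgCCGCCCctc
Ezh1: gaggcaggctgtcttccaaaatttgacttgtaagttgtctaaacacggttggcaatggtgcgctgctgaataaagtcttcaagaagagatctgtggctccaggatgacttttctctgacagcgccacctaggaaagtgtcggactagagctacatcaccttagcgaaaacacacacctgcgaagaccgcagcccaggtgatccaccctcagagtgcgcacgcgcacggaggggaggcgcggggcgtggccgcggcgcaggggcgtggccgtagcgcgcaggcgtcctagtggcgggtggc
Crebbp: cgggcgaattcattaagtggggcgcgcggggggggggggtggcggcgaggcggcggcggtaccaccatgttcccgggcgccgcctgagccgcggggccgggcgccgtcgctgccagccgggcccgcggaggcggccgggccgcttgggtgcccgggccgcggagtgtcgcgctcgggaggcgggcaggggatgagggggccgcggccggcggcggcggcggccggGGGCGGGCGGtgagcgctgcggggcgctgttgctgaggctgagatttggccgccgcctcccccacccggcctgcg
Kmt2c: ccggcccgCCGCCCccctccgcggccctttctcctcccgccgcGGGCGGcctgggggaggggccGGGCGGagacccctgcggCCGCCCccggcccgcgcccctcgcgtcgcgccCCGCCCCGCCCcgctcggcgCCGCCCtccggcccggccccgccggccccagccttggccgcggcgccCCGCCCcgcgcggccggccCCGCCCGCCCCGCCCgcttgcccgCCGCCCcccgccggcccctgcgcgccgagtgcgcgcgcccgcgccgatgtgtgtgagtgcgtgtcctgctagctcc
The Kmt2c promoter held 12 matches to the GC box, that of Dnmt3b 4, those of Dnmt1 and Crebbp 2, that of Kdm2b 1, and that of Ezh1 none. A match to GGGCGG on either strand was present in 27 of 34 members' promoters (79.4%) and in 46.3% of 17492 promoters of the same length, with 1 promoter per gene, that of the first start in the table. For Kdm2b and Dnmt1, which have several listed starts, the printed one is another, that with the most H3K27ac. CCGGAAG was found in 4 of 34 (11.8%) and 11.9%, and CCAAT or ATTGG in 10 of 34 (29.4%) and 39.0%. CG dinucleotides numbered 30.5 in the median member promoter and 13 over all. A match describes letters in this window and is not a measured site. H3K27ac peaks covered all 300 bases of the Crebbp and Kdm2b promoters in 10 of 10 libraries. At Dnmt3b they covered 41 to 300 bases in the 8 HSPC libraries and 0 in both neutrophil libraries, while H3K4me3 covered 94 to 259 bases in all 10. At Ezh1 the H3K27ac peak lay downstream of the start and reached at most 51 of the printed bases, and H3K4me3 covered 243 to 290.

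Differences between groups were tested with limma on log2(covered bp + 500), fitted over every gene that 2 or more of a mark's 10 libraries covered, with Benjamini-Hochberg adjustment over all of them and a threshold of 0.05. Log2 differences and folds below are on that scale, which understates changes at low coverage, and errors are standard errors. All 41 genes passed the filter for each mark. In at least 1 mark and comparison 35 of 41 genes were called, where 75.6% of the genes tested for all 3 marks were. By mark these were 29 for H3K27ac (59.9% of all genes), 14 for H3K4me1 (33.7%) and 7 for H3K4me3 (21.7%). Kmt2a, Men1, Mllt1, Ep300, Setd2 and Nsd1 were called in none. Every called member had groups whose 2 libraries did not overlap, but this was also common without a call. For H3K27ac against WT, 38 of 41 members were higher without overlap in Npm1c HSPC, where 8 were called. In Flt3-ITD HSPC 22 were higher and 4 lower without overlap, where 0 were called. The share without overlap over all genes was not computed, so it adds no support to a call. H3K4me1 and H3K4me3 peaks are 1 kb wide, so values move in steps of 1 peak. For H3K4me3, 12 of 41 genes had equal replicates in all 5 groups, and an adjusted p for that mark reflects the lack of any spread and can rest on 1 peak.

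**Figure D2:**
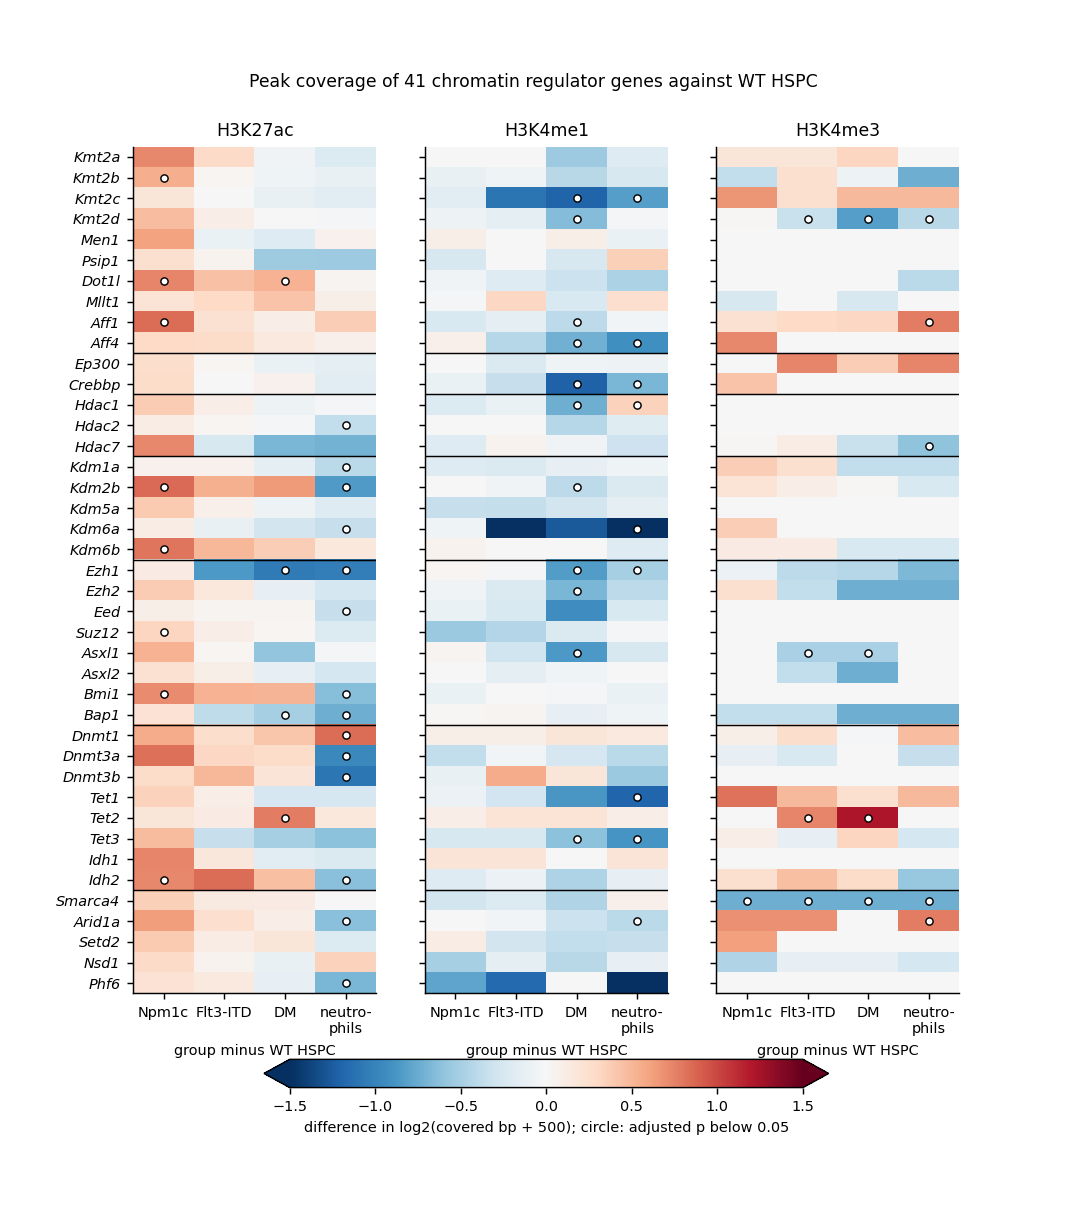
Difference in log2(covered bp + 500) from WT HSPC (colour, clipped at 1.5) for the 41 genes (rows, in the order of their roles, separated by lines) in Npm1c, Flt3-ITD and DM HSPC and WT neutrophils (columns) for each mark; circles mark adjusted p below 0.05. The Npm1c column of H3K27ac is above 0 for all 41 genes, and the DM column of H3K4me1 is below 0 for 34.

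Npm1c HSPC showed more H3K27ac over these genes, as over the genome. All 41 differences from WT HSPC were above 0, with a median of 0.38 beside 0.36 over all 13637 genes tested. Kmt2b, Dot1l, Aff1, Kdm2b, Kdm6b, Suz12, Bmi1 and Idh2 rose and none fell: 8 of 41, where 17.7% of all genes rose and 0.022% fell. Of 104 other chromatin regulators, 23 rose. After each library was centred on its median gene, the members' median was -0.02 and limma called none of the 41 (8 at an unadjusted p below 0.05), while 0.763% of all genes rose and 0.0367% fell. Calls were few when a library was left out: 3 without Npm1c replicate 1 (beside 8.07% of all genes), 1 without replicate 2 (4.44%) and 0 without WT replicate 1 (0.066%) or 2 (0.0367%). The summed H3K27ac of the HSPC markers was higher in the same libraries, and its part was not tested. For H3K4me1 limma called no member (4 at an unadjusted p below 0.05, background 0.115% up and 0.219% down). For H3K4me3 only Smarca4, the ATPase of SWI/SNF, changed, a fall, where 0.967% of genes rose and 0.403% fell, and leaving out libraries gave 1 to 5 calls, with 5 without Npm1c replicate 2, where 6.38% of all genes were called.

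In Flt3-ITD HSPC few of these genes passed the test against WT. For H3K27ac limma called 0 of 41 (8 at an unadjusted p below 0.05, 6 higher and 2 lower), where 0.0807% of all genes rose and 0.022% fell, and the members' median was 0.10 beside 0.12 over all genes. The smallest adjusted p was that of Idh2, the mitochondrial isocitrate dehydrogenase, at 0.84 ± 0.15 (adjusted p = 0.0862). For H3K4me1 again 0 of 41 were called (4 at an unadjusted p below 0.05, all lower), against a background of 0.529% up and 1.17% down. The H3K4me1 values of Kmt2c and Kdm6a, both lower than in WT and neither called, are given below. For H3K4me3, Tet2 rose and Kmt2d, Asxl1 and Smarca4 fell, 1 and 3 of 41, where 2.27% of genes rose and 0.452% fell. None of these 4 calls was kept after centring or with peak lists thinned at random to equal length, and that of Tet2 was also lost with the gene span alone. The replicates behind them were equal or nearly so, so leaving out 1 library could not test these calls.

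DM HSPC had less H3K4me1 over these genes and mixed changes in the other marks. Kmt2c, Kmt2d, Aff1, Aff4, Crebbp, Hdac1, Kdm2b, Ezh1, Ezh2, Asxl1 and Tet3 fell against WT and none rose: 11 of 41, where 16.2% of genes fell and 1.91% rose. The members' median H3K4me1 difference was -0.37, beside -0.21 over all genes. Both DM peak lists for this mark were shorter than both WT lists, with 104761 and 109371 peaks against 122876 and 131205. Leaving out a library gave 5 to 8 calls, beside 8.91% to 11.8% of all genes, lowest without WT replicate 2, and Aff4, Crebbp and Hdac1 were called in each of these 4 fits. After centring, the falls of Kmt2c, Crebbp and Asxl1 remained, 3 of 41, where 8.29% of all genes fell and 5.91% rose. Among the other chromatin regulators 24 of 104 fell and 1 rose. In the same libraries the H3K4me1 of the HSPC, erythroid and neutrophil markers was lower than in WT. That of the monocyte and macrophage, B-lymphoid and T and NK cell markers was higher. The part of these marker differences, and that of the shorter lists, in the falls was not tested. For H3K27ac, Dot1l and Tet2 rose and Ezh1 and Bap1 fell, 2 and 2 of 41, where 6.94% of genes rose and 6.04% fell. None of these 4 was called in all fits that left out a library: 0 were called without WT replicate 1 (beside 1.57% of all genes) or 2 (2.17%), 8 without DM replicate 1 (14.6%) and 6 without replicate 2 (20.1%). With centring 3 rose (Dot1l, Kdm2b and Tet2) and 5 fell (Psip1, Hdac7, Ezh1, Asxl1 and Bap1), where 11.4% of all genes rose and 11.2% fell. For H3K4me3, Tet2 rose and Kmt2d, Asxl1 and Smarca4 fell, where 4.47% of genes rose and 3.7% fell. Here too the replicates were equal or nearly so, so leaving out 1 library could not test these 4 calls. After centring only that of Tet2 was kept, and with peak lists thinned at random to equal length none of them was.

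Neutrophils had less H3K27ac than HSPC over 13 genes and more over 1. Hdac2, Kdm1a, Kdm2b, Kdm6a, Ezh1, Eed, Bmi1, Bap1, Dnmt3a, Dnmt3b, Idh2, Arid1a and Phf6 fell and Dnmt1 rose, where 23.2% of all genes fell and 13.2% rose. The members' median was -0.20, beside -0.12 over all genes. Of these 14 calls, those of Bap1 and Phf6 were kept in every fit that left out a library, and the number called was 5 and 2 without WT HSPC replicates 1 and 2 and 4 without either neutrophil replicate, beside 18.2% to 19.5% of all genes. The Bap1 call was lost with the gene span alone and with peak lists thinned at random to equal length, and that of Phf6 with peaks of at least 500 bp. With centring 3 rose (Aff1, Dnmt1 and Nsd1) and 10 fell, where 20.4% rose and 20.9% fell over all genes. For H3K4me1, Kmt2c, Aff4, Crebbp, Kdm6a, Ezh1, Tet1, Tet3 and Arid1a fell and Hdac1 rose, where 18.6% of genes fell and 4.67% rose. Leaving out a library gave 3 to 6 calls, beside 13% to 15% of all genes, with 3 without WT HSPC replicate 2, and Aff4, Kdm6a and Tet3 were called each time. For H3K4me3, Aff1 and Arid1a rose and Kmt2d, Hdac7 and Smarca4 fell, where 6.72% rose and 9.88% fell. With centring the H3K4me3 calls were rises of Aff1, Ep300 and Arid1a, 3 of 41, where 9.4% of all genes rose and 6.06% fell.

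DM was also set against each single mutant, comparisons that share the DM libraries with each other and with the comparison above. Against Npm1c HSPC, 15 members had lower H3K27ac (Kmt2b, Kmt2d, Psip1, Aff1, Hdac1, Hdac7, Kdm5a, Kdm6a, Ezh1, Suz12, Asxl1, Asxl2, Bap1, Tet3 and Idh1) and Tet2 had more, where 30.9% of all genes fell and 3.01% rose. After centring 4 fell (Hdac7, Ezh1, Asxl1 and Idh1) and 2 rose (Eed and Tet2), beside 14.4% and 12.2% of all genes. The number called depended on the library left out: 28 without DM replicate 1 (beside 49% of all genes), 10 without DM replicate 2 (23%), 5 without Npm1c replicate 1 (19.4%) and 7 without Npm1c replicate 2 (25.3%), and Hdac7, Ezh1 and Bap1 were called in all 4. For H3K4me1, Kmt2c, Kmt2d, Aff4, Crebbp, Hdac1, Kdm2b, Ezh1, Ezh2 and Asxl1 fell, 9 of 41, where 12.1% of genes fell and 3.1% rose, and with a library left out 4 to 8 were called, 4 without DM replicate 2, beside 8.32% to 20.2% of all genes. For H3K4me3, Tet2 rose and Kmt2d and Asxl1 fell, where 3.8% rose and 4.34% fell, with 7 calls without Npm1c replicate 2, beside 11.9% of all genes. Against Flt3-ITD HSPC limma called no member for H3K27ac (4 at an unadjusted p below 0.05; background 0.631% up, 1.86% down), but 7 without DM replicate 1, beside 12.5% of all genes. Crebbp, Hdac1, Kdm2b and Ezh1 fell in H3K4me1, where 8.37% of genes fell and 0.961% rose, with 2 calls without DM replicate 1, DM replicate 2 or Flt3-ITD replicate 1, beside 4.75%, 6.62% and 6.28% of all genes. For H3K4me3 Tet2 rose and Kmt2d fell, where 2.03% rose and 3.62% fell.

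The interaction asked whether DM differed from the sum of the differences of both single mutants, computed as DM minus Npm1c minus Flt3-ITD plus WT. It was negative for H3K27ac at Dot1l, Kdm6b, Asxl1 and Idh2 and positive at none, 4 of 41, where it was negative in 17.5% of all genes and positive in 0.462%, and the members' median was -0.55 beside -0.46. The number called was 25 without DM replicate 1 (beside 45.2% of all genes), 5 without DM replicate 2 (9.93%) or Flt3-ITD replicate 1 (20.4%), 2 and 1 without Npm1c replicates 2 and 1 (11.7% and 8.86%), and 0 without Flt3-ITD replicate 2 (3.51%) or either of the WT libraries (0.565% and 0.242%). For H3K4me1 limma called none of the 41 (8 at an unadjusted p below 0.05; background 0.869% up and 2.48% down). For H3K4me3 it was positive at Tet2 and Smarca4 and negative at Kmt2d and Arid1a, where 1.96% of genes were positive and 3.78% negative, and 9 members were called without Npm1c replicate 2, beside 10.7% of all genes.

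**Figure D3:**
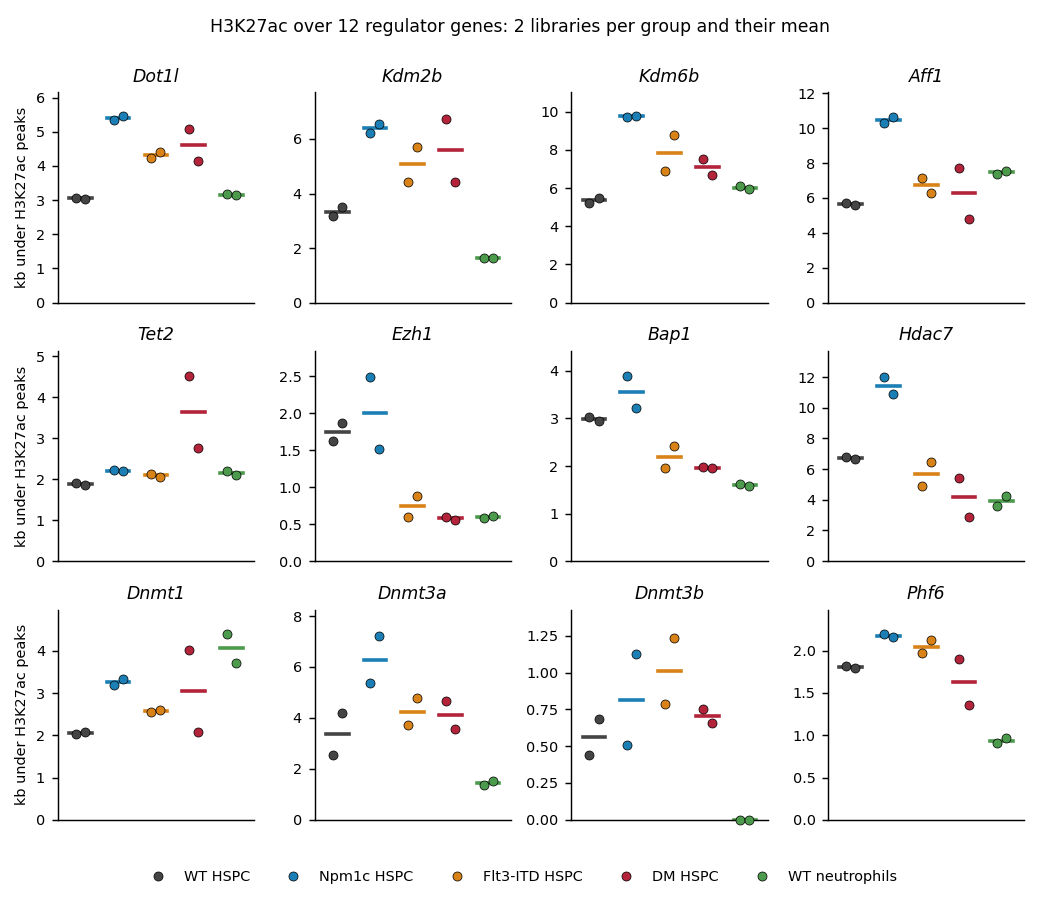
H3K27ac coverage in kb (vertical axis, from 0) of 12 genes in the 2 libraries of each of 5 groups (points) with their mean (line). Dot1l, Kdm2b, Kdm6b and Aff1 have their highest mean in Npm1c, Tet2 in DM, and Dnmt3a, Dnmt3b and Phf6 are lowest in neutrophils.

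Among the KMT2 and elongation genes, Dot1l, which methylates H3K79, carried more H3K27ac in mutant HSPC. It held 3.05 and 3.05 kb in WT HSPC, 5.34 and 5.47 kb in Npm1c, 4.23 and 4.40 kb in Flt3-ITD, 5.07 and 4.15 kb in DM and 3.17 and 3.16 kb in neutrophils. All 6 mutant libraries lay above both WT libraries. The difference was 0.74 ± 0.11 (adjusted p = 0.0163) in Npm1c and 0.52 ± 0.11 (adjusted p = 0.0223) in DM, and 0.44 ± 0.11 (adjusted p = 0.144) in Flt3-ITD. The start and a region past the 3′ end, over Plekhj1 and Sf3a2, were covered in all 10 libraries, and the regions present in both libraries of a mutant group and in no WT or neutrophil library lay upstream. That at chr10:80751250-80752210, 3.47 kb before the listed start, held 0.778 and 0.81 kb of H3K27ac in Npm1c, 0.614 and 0.846 kb in Flt3-ITD and 0.813 and 0.512 kb in DM, and 0 in both WT HSPC and both neutrophil libraries. H3K4me1 was called at chr10:80751848-80752994, which overlaps it, in all 10 libraries. The region over the start held 1.02 and 1.05 kb in WT, 1.30 and 1.50 kb in Npm1c and 0.984 and 1.16 kb in DM. Without the 10 kb flanks the Dot1l call in DM was lost.

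Aff1 rose in Npm1c and fell from there in DM. H3K27ac covered 5.72 and 5.61 kb in WT, 10.3 and 10.7 kb in Npm1c, 7.17 and 6.26 kb in Flt3-ITD, 7.73 and 4.81 kb in DM and 7.39 and 7.57 kb in neutrophils, differences of 0.83 ± 0.21 (adjusted p = 0.0367) for Npm1c against WT and -0.73 ± 0.21 (adjusted p = 0.031) for DM against Npm1c. The Npm1c libraries stood above all 8 others. Within the gene, chr5:103761453-103762211, 7.26 kb after a listed start, held 0.707 and 0.659 kb in Npm1c and 0 in the other 8 libraries. Its H3K4me1 was 50 and 51 kb in WT and 38 and 39 kb in DM, a small and even fall of -0.39 ± 0.07 (adjusted p = 0.0182). In neutrophils it was H3K4me3 that stood apart, with 14 and 14 kb against 8 and 8 kb in WT HSPC, 10 and 9 kb in Npm1c, 9 and 11 kb in Flt3-ITD and 10 and 10 kb in DM, 0.77 ± 0.10 (adjusted p = 0.00332). Of its H3K4me3 regions, 7 were present in both neutrophil libraries and in none of the HSPC libraries, in the body of the gene.

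Kmt2b, which acts at promoters, had an H3K27ac coverage of 3.30 and 3.62 kb in WT, 5.48 and 5.06 kb in Npm1c and 3.77 and 2.86 kb in DM, a rise of 0.54 ± 0.13 (adjusted p = 0.0356) in Npm1c and a difference of -0.60 ± 0.13 (adjusted p = 0.0132) for DM against Npm1c. Kmt2c, an enhancer methyltransferase, lost H3K4me1 over its own body. It held 24 and 21 kb in WT HSPC, 20 and 20 kb in Npm1c, 13 and 8 kb in Flt3-ITD, 10 and 9 kb in DM and 14 and 11 kb in neutrophils. DM and WT did not overlap, at -1.20 ± 0.23 (adjusted p = 0.0187), and neutrophils against WT gave -0.83 ± 0.23 (adjusted p = 0.0494). The Flt3-ITD value, -1.10 ± 0.23 (adjusted p = 0.105), did not pass the threshold. No call of Kmt2c was kept in all fits that left out a library. Of its 28 merged H3K4me1 regions, 12 were in both WT and neither DM library and 2 the reverse, while H3K27ac stayed between 2.30 and 3.42 kb in all 10 libraries.

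Kmt2d, the paralogue, fell in H3K4me1 in DM, with 6 and 7 kb against 10 and 11 kb in WT, 11 and 9 kb in Npm1c, 10 and 9 kb in Flt3-ITD and 10.7 and 9.92 kb in neutrophils, -0.65 ± 0.12 (adjusted p = 0.0184). H3K27ac of Kmt2d was lower in DM, 5.74 and 4.37 kb, than in Npm1c, 6.67 and 7.53 kb, by -0.46 ± 0.14 (adjusted p = 0.0438). Its H3K4me3 was 3.86 and 4 kb in WT, 4 and 4 kb in Npm1c, 3 and 3 kb in Flt3-ITD, 2 and 2 kb in DM and 2.82 and 2.83 kb in neutrophils. A peak in the gene body at chr15:98836870-98838066, 33.7 kb after the start, was in all 4 WT and Npm1c libraries and in none of the other 6. Another, at chr15:98826493-98828377 over the neighbouring gene Prkag1, was absent only in DM. The start itself had a peak in all 10. Aff4, another elongation scaffold, held 13 and 14.5 kb of H3K4me1 in WT, 14.5 and 14.5 kb in Npm1c, 10.6 and 9.54 kb in Flt3-ITD, 8.65 and 7.69 kb in DM and 7.52 and 6.56 kb in neutrophils, with falls of -0.72 ± 0.10 (adjusted p = 0.00638) in DM and -0.92 ± 0.10 (adjusted p = 0.00188) in neutrophils. Psip1, which tethers the KMT2A-menin complex to chromatin, was called once, lower in DM (1.40 and 0.692 kb of H3K27ac) than in Npm1c (2.12 and 2.03 kb), beside 1.65 and 1.72 kb in WT. For Men1, which encodes menin, the DM difference in H3K27ac was -0.19 (95% interval -0.82 to 0.43) and the Npm1c difference 0.61 (95% interval -0.02 to 1.23). Those of Kmt2a were -0.06 (95% interval -0.65 to 0.54) and 0.72 (95% interval 0.13 to 1.32).

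Of the 2 acetyltransferase genes, Crebbp lost H3K4me1 in DM and neutrophils. It held 27 and 30 kb in WT HSPC, 26 and 27 kb in Npm1c, 20 and 25 kb in Flt3-ITD, 13 and 11 kb in DM and 18 and 17 kb in neutrophils. Both DM libraries lay below the other 8. The difference of DM was -1.22 ± 0.13 (adjusted p = 0.00232) from WT, -1.12 ± 0.13 (adjusted p = 0.00358) from Npm1c and -0.88 ± 0.13 (adjusted p = 0.0125) from Flt3-ITD, and that of neutrophils from WT was -0.69 ± 0.13 (adjusted p = 0.0138). The DM call was kept under every alternative, thinned peak lists and centring included. Of 33 merged regions in the Crebbp window, 14 were in both WT and neither DM library, none the reverse, and 8 were in both groups. H3K27ac over Crebbp did not follow: it covered 3.02 and 3.05 kb in WT and 3.19 and 3.22 kb in DM, 0.07 (95% interval -0.18 to 0.31). Ep300, the paralogue, held 11 and 9 kb of H3K4me1 in WT and 10 and 9 kb in DM, -0.07 (95% interval -0.52 to 0.39). The difference between the 2 genes was not tested.

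Among the deacetylases, Hdac1 fell in H3K4me1 in DM and rose in neutrophils. Its values were 7 and 7 kb in WT, 6 and 6 kb in Npm1c, 7 and 6 kb in Flt3-ITD, 4 and 4 kb in DM and 9 and 9 kb in neutrophils. The differences from WT were -0.74 ± 0.07 (adjusted p = 0.00183) and 0.34 ± 0.07 (adjusted p = 0.0213), and that of DM from Flt3-ITD was -0.63 ± 0.07 (adjusted p = 0.00532). Neither the DM nor the neutrophil call against WT survived centring. The neutrophil call was also lost with the gene span alone, with robust eBayes in limma and with thinned peak lists. A region at chr4:129535517-129537347 within the gene had a peak in every library but the DM pair, and one at chr4:129546858-129549026, over the T-cell kinase gene Lck, was present in both WT and both Npm1c libraries and absent elsewhere. Hdac7, a class IIa deacetylase, changed in H3K27ac between DM and Npm1c: 6.77 and 6.68 kb in WT, 12 and 10.9 kb in Npm1c, 4.88 and 6.47 kb in Flt3-ITD, 5.41 and 2.90 kb in DM and 3.61 and 4.23 kb in neutrophils, -1.41 ± 0.26 (adjusted p = 0.00697). Both Npm1c libraries were above all others. The region over its upstream start, chr15:97843681-97845395, held 0.207 and 0.407 kb in WT, 1.72 and 1.20 kb in Npm1c and 0 and 0.352 kb in Flt3-ITD, and 0 in DM and neutrophils. A region 3.67 kb before that start (chr15:97847493-97848855) held 1.02 and 1.04 kb in WT and 0 in DM and neutrophils, and the second listed start kept 1.11 and 0.969 kb in DM. H3K4me3 of Hdac7 fell in neutrophils, 4.40 and 4.38 kb against 6 and 8 kb, -0.60 ± 0.14 (adjusted p = 0.0419). Hdac2 was called only for H3K27ac in neutrophils, with 0.969 and 1.05 kb against 1.40 and 1.49 kb in WT HSPC.

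Among the demethylases, Kdm2b, which demethylates H3K36 and recruits a variant Polycomb complex 1 to CpG islands, had more H3K27ac in Npm1c and less in neutrophils than in WT HSPC. It held 3.16 and 3.51 kb in WT, 6.23 and 6.54 kb in Npm1c, 4.43 and 5.72 kb in Flt3-ITD, 6.75 and 4.42 kb in DM and 1.65 and 1.62 kb in neutrophils. All 6 mutant libraries lay above WT and both neutrophil libraries below it. The rise in Npm1c was 0.84 ± 0.19 (adjusted p = 0.0309) and the fall in neutrophils -0.85 ± 0.19 (adjusted p = 0.0123). The regions over its starts were present in all 10 libraries, and the one holding the printed promoter, chr5:122987421-122990399, covered 1.53 and 1.59 kb in WT, 2.69 and 2.98 kb in Npm1c and 0.952 and 0.753 kb in neutrophils. Its H3K4me1 was 25 and 25 kb in WT and 18 and 20 kb in DM, -0.39 ± 0.07 (adjusted p = 0.012). Kdm6b, which demethylates H3K27me3, had an H3K27ac coverage of 5.22 and 5.50 kb in WT, 9.72 and 9.78 kb in Npm1c, 6.89 and 8.80 kb in Flt3-ITD, 7.54 and 6.66 kb in DM and 6.10 and 5.94 kb in neutrophils. WT libraries were the lowest of the 10, and the rise in Npm1c was 0.81 ± 0.15 (adjusted p = 0.0214). Kdm1a, the H3K4 demethylase LSD1, fell only in neutrophils, 0.702 and 0.729 kb against 1.11 and 1.11 kb, and Kdm5a only between DM (3.63 and 2.88 kb) and Npm1c (4.74 and 4.58 kb).

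**Figure D4:**
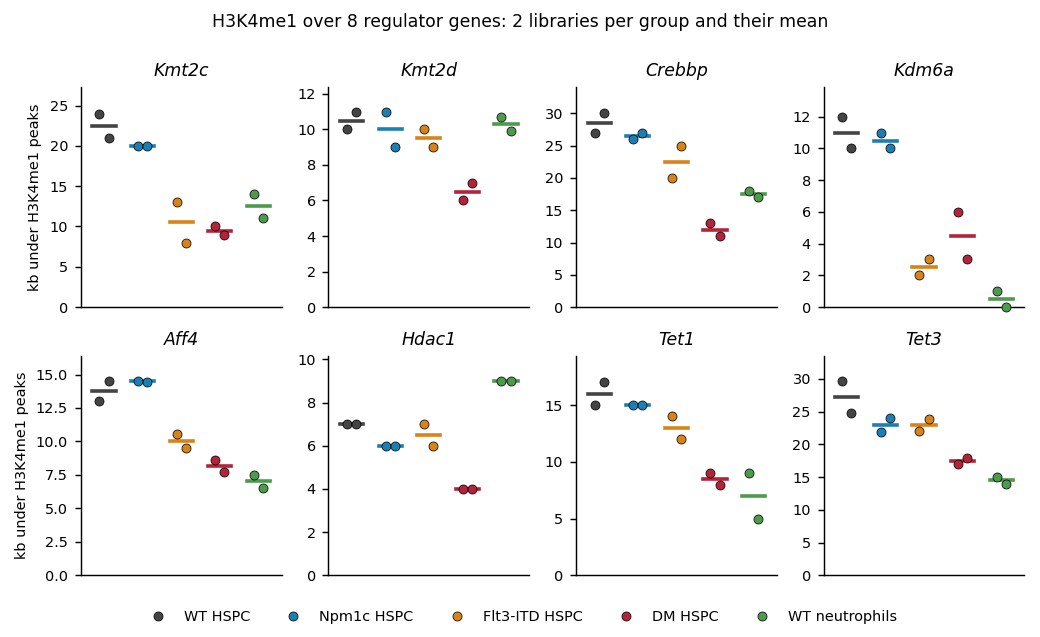
H3K4me1 coverage in kb (vertical axis, from 0, in steps of 1 kb peaks) of 8 genes in the 2 libraries of each of 5 groups (points) with their mean (line). The DM libraries are the lowest for Kmt2d, Crebbp and Hdac1, and Kdm6a falls to 1 and 0 kb in neutrophils.

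Kdm6a, the X-linked paralogue of Kdm6b, lost H3K4me1 from its gene body. It held 12 and 10 kb in WT HSPC, 11 and 10 kb in Npm1c, 2 and 3 kb in Flt3-ITD, 6 and 3 kb in DM and 1 and 0 kb in neutrophils. The 4 WT and Npm1c libraries lay above the other 6. The neutrophil difference was -3.73 ± 0.55 (adjusted p = 0.00607), a call kept under every alternative, while Flt3-ITD at -1.95 ± 0.55 (adjusted p = 0.215) and DM at -1.26 ± 0.55 (adjusted p = 0.175) did not pass the threshold. H3K27ac was 3.04 and 3.10 kb in WT, 3.47 and 3.26 kb in Npm1c, 2.59 and 2.33 kb in DM and 2.46 and 2.18 kb in neutrophils, lower in neutrophils than in WT by -0.34 ± 0.09 (adjusted p = 0.0268), and H3K4me3 was 1 peak in 9 of 10 libraries. Peaks over Xist, the RNA of the inactive X, also differed between libraries. In the H3K4me1 libraries there were 2 and 2 such peaks in WT HSPC, 0 and 1 in neutrophils and 0 in the other 6. The H3K27ac libraries had 1 and 1 in WT HSPC, 1 and 1 in Npm1c and 0 and 0 in Flt3-ITD. DM had 0 and 1 and neutrophils 0 and 0. In the H3K4me3 libraries there were 3 and 2 such peaks in WT HSPC, 2 and 2 in Npm1c and 0 and 0 in Flt3-ITD. DM had 0 and 2 and neutrophils 0 and 0. Peaks on the Y chromosome numbered 4 or 5 in each of the 10 H3K4me3 libraries. In the H3K4me1 libraries they numbered 1 and 2 in WT HSPC, 1 and 1 in Npm1c and 0 and 0 in Flt3-ITD. DM held 4 and 2 and neutrophils 9 and 8. The share of H3K4me1 peaks on the X chromosome was 1.6% and 1.65% in WT HSPC, 1.08% and 1.52% in Npm1c, 0.991% and 1.01% in Flt3-ITD, 1.58% and 1.31% in DM and 1.56% and 1.5% in neutrophils. The list of Npm1c replicate 1 was the shortest of the H3K4me1 lists, with 102927 peaks. The part of the mice's sex in the Kdm6a result was not tested.

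Within Polycomb, Ezh1, the H3K27 methyltransferase of resting cells, lost a region at its 3′ end. H3K27ac covered 1.62 and 1.88 kb in WT HSPC, 2.49 and 1.51 kb in Npm1c, 0.603 and 0.882 kb in Flt3-ITD, 0.601 and 0.554 kb in DM and 0.581 and 0.608 kb in neutrophils. The Flt3-ITD, DM and neutrophil libraries all lay below WT. The difference was -1.06 ± 0.20 (adjusted p = 0.0171) in DM, -1.04 ± 0.20 (adjusted p = 0.00662) in neutrophils and -0.86 ± 0.20 (adjusted p = 0.136) in Flt3-ITD. A pair of H3K27ac regions 37 and 35.9 kb after the start, at chr11:101189096-101189850 and chr11:101189977-101191155, carried it. They overlap the gene Cntnap1, so they cannot be assigned to Ezh1. The second held 0.595 and 0.655 kb in WT, 1.16 and 0.568 kb in Npm1c, 0 and 0.228 kb in Flt3-ITD and 0 in DM and neutrophils. H3K4me1 there (chr11:101189902-101191172) was in all 6 WT, Npm1c and Flt3-ITD libraries and in no DM or neutrophil library. The region over the start of Ezh1 held 0.486 and 0.598 kb in WT and 0.601 and 0.554 kb in DM, and with the gene span alone the difference of DM turned to 0.051 and that of neutrophils to 0.074, neither called. H3K4me1 of the whole window was 5.21 and 7.04 kb in WT and 3.32 and 3 kb in DM, -0.84 ± 0.13 (adjusted p = 0.01).

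**Figure D5:**
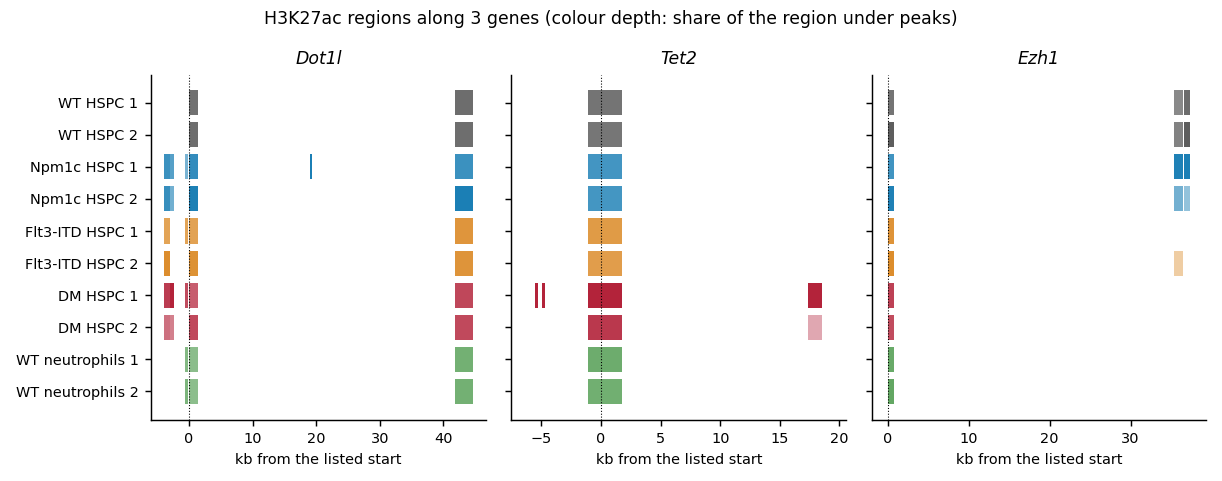
Merged H3K27ac regions along Dot1l, Tet2 and Ezh1 (horizontal axis: kb from the listed start, positive in the direction of transcription) in the 10 libraries (rows); colour depth is the share of the merged region under a library's peaks. The Dot1l region before the start is present in the 6 mutant libraries, the Tet2 region within the gene in both DM libraries, and the Ezh1 regions far from the start in the WT and Npm1c libraries, with 1 of the pair also in 1 Flt3-ITD library.

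Ezh2, the main H3K27 methyltransferase of dividing cells, fell in H3K4me1 in DM, with 9 and 8 kb against 13 and 15 kb in WT, 13 and 14 kb in Npm1c, 11 and 13 kb in Flt3-ITD and 10 and 11 kb in neutrophils, -0.69 ± 0.12 (adjusted p = 0.0127). Its H3K27ac was 2.54 and 2.48 kb in WT and 2.53 and 2.03 kb in DM and was not called. Of the partners Eed and Suz12, H3K27ac of Eed was 1.99 and 1.96 kb in WT and 1.46 and 1.44 kb in neutrophils, a fall of -0.34 ± 0.09 (adjusted p = 0.0201), and that of Suz12 was 1.74 and 1.72 kb in WT and 2.27 and 2.31 kb in Npm1c, a rise of 0.32 ± 0.08 (adjusted p = 0.0371) that turned to -0.073 after centring. Bmi1, a core subunit of Polycomb complex 1, held 1.66 and 1.89 kb in WT, 2.75 and 3.74 kb in Npm1c, 2.38 and 3.19 kb in Flt3-ITD, 2.82 and 2.63 kb in DM and 0.79 and 1.14 kb in neutrophils. Mutant libraries were above and neutrophils below WT, with 0.71 ± 0.19 (adjusted p = 0.0421) in Npm1c and -0.64 ± 0.19 (adjusted p = 0.0308) in neutrophils. The region over its start held 0.356 and 0.4 kb in WT and 0 in both neutrophil libraries, while the nearby region over Commd3 kept 0.79 and 0.939 kb.

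Asxl1, a Polycomb-linked partner of the deubiquitinase Bap1, was lower in DM for all 3 marks in at least 1 comparison. H3K27ac covered 3.76 and 3.54 kb in WT, 6.30 and 4.71 kb in Npm1c, 3.27 and 4.22 kb in Flt3-ITD, 2.86 and 1.74 kb in DM and 3.85 and 3.30 kb in neutrophils, and DM differed from Npm1c by -1.12 ± 0.22 (adjusted p = 0.00963). H3K4me1 was 15 and 17 kb in WT, 17 and 16 kb in Npm1c, 15 and 11 kb in Flt3-ITD, 9 and 8.12 kb in DM and 13 and 13.9 kb in neutrophils, with a DM difference of -0.86 ± 0.15 (adjusted p = 0.0135) from WT. An H3K4me3 peak at chr2:153356874-153357958, 11.6 kb after the start, was in both WT, both neutrophil and 1 Npm1c library and in no Flt3-ITD or DM library. The other Npm1c library had a peak further into the gene at chr2:153389221-153390220 instead. Bap1 had an H3K27ac coverage of 3.02 and 2.94 kb in WT, 3.90 and 3.21 kb in Npm1c, 1.97 and 2.41 kb in Flt3-ITD, 1.97 and 1.95 kb in DM and 1.62 and 1.58 kb in neutrophils. The falls were -0.50 ± 0.12 (adjusted p = 0.0327) in DM and -0.73 ± 0.12 (adjusted p = 0.00317) in neutrophils. They lay at the 3′ end, chr14:31259676-31261326, which overlaps Dnah1 and held 1.23 and 1.04 kb in WT and 0 in DM and neutrophils. With the gene span alone the DM difference was 0.018, and the neutrophil call was lost too. Asxl2 was called only between DM and Npm1c, 1.89 and 1.53 kb against 2.39 and 2.22 kb.

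Of the DNA methyltransferases, Dnmt3a and Dnmt3b, which set new methylation, had less H3K27ac in neutrophils than in WT HSPC. Dnmt1, which copies methylation at replication, had more over its whole window. Dnmt3a held 2.56 and 4.21 kb in WT HSPC, 5.36 and 7.21 kb in Npm1c, 3.71 and 4.79 kb in Flt3-ITD, 4.68 and 3.56 kb in DM and 1.37 and 1.53 kb in neutrophils. The WT pair differed widely, but both neutrophil libraries lay below the 8 of HSPC, -0.96 ± 0.24 (adjusted p = 0.0191). Over the start at chr12:3890748-3893171 coverage was 1.47 and 1.61 kb in WT and 0.309 and 0.24 kb in neutrophils, and the region 27.4 kb within the gene at chr12:3833863-3835275 kept 1.06 and 1.29 kb. Dnmt3b, with 1 region over its start at chr2:153649103-153650337, held 0.441 and 0.687 kb in WT, 0.509 and 1.12 kb in Npm1c, 0.784 and 1.24 kb in Flt3-ITD, 0.753 and 0.657 kb in DM and 0 in both neutrophil libraries, -1.08 ± 0.25 (adjusted p = 0.0139). Dnmt1 held 2.03 and 2.08 kb in WT, 3.18 and 3.33 kb in Npm1c, 2.55 and 2.60 kb in Flt3-ITD, 4.03 and 2.07 kb in DM and 4.41 and 3.72 kb in neutrophils, 0.83 ± 0.23 (adjusted p = 0.027). Its start had less in neutrophils, 0.939 and 0.946 kb against 1.44 and 1.43 kb, and the rise lay in other regions. That within the gene at chr9:20946046-20946721 held 0.64 and 0.584 kb in neutrophils and 0 in the other 8 libraries. Another, chr9:20966339-20967657, overlaps the receptor gene S1pr2 and held 0.703 and 0.883 kb, and without the flanks the Dnmt1 call was lost.

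Tet2, which oxidises 5-methylcytosine, gained 2 marks in DM. Its H3K27ac was 1.90 and 1.85 kb in WT HSPC, 2.22 and 2.20 kb in Npm1c, 2.13 and 2.05 kb in Flt3-ITD, 4.53 and 2.77 kb in DM and 2.19 and 2.097 kb in neutrophils. Both DM libraries were above all 8 others, though they differed between themselves, and the rise was 0.77 ± 0.18 (adjusted p = 0.0327) from WT and 0.58 ± 0.18 (adjusted p = 0.0424) from Npm1c, while the difference from Flt3-ITD was 0.65 ± 0.18 (adjusted p = 0.123). After centring the differences from WT, Npm1c and Flt3-ITD were each called. A region within the gene, chr3:133525822-133527005, 18 kb after the start, held 1.18 and 0.23 kb in DM and 0 in the other 8 libraries. An H3K4me3 peak at chr3:133525557-133526734 overlapped it in both DM libraries and in no other, and H3K4me1 lay at chr3:133525732-133526881 in all 10. A further H3K4me3 peak 5.24 kb before the start, chr3:133549090-133550173, was in both Flt3-ITD and both DM libraries only. Tet2 H3K4me3 was thus 1 and 1 kb in the WT pair, 2 and 2 kb in the Flt3-ITD pair and 2.96 and 2.97 kb in DM, a difference of 1.21 (adjusted p = 1.39e-14) for DM against WT that rests on 2 added peaks per library. The call for H3K27ac against WT was lost without either WT replicate, with peaks of at least 500 bp, with no filter and with peaks thinned at random to equal numbers, and thinning also ended that for H3K4me3.

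Tet1 and Tet3 had less H3K4me1 in neutrophils. Tet1 held 15 and 17 kb in WT, 15 and 15 kb in Npm1c, 14 and 12 kb in Flt3-ITD, 9 and 8 kb in DM and 9 and 5 kb in neutrophils, -1.19 ± 0.25 (adjusted p = 0.0203) for neutrophils and -0.87 ± 0.25 (adjusted p = 0.0632) for DM, the latter not called. Of its 18 merged regions, 7 were in both WT and neither neutrophil library. Tet3 held 29.7 and 24.7 kb in WT, 21.9 and 24 kb in Npm1c, 22 and 23.9 kb in Flt3-ITD, 17 and 18 kb in DM and 15 and 14 kb in neutrophils. Both DM libraries and both neutrophil libraries were below the other 6, with -0.62 ± 0.10 (adjusted p = 0.0119) and -0.88 ± 0.10 (adjusted p = 0.00246). Tet3 H3K27ac in DM, 3.80 and 1.78 kb, was below that in Npm1c, 5.40 and 5.82 kb, by -0.97 ± 0.29 (adjusted p = 0.0383). Idh2 rose in H3K27ac in Npm1c, at its single region over the start, chr7:80114066-80115839: 0.657 and 0.776 kb in WT, 1.33 and 1.67 kb in Npm1c, 1.59 and 1.77 kb in Flt3-ITD, 1.22 and 1.11 kb in DM and 0.372 and 0.215 kb in neutrophils. All mutant libraries lay above WT and neutrophils below, with 0.72 ± 0.15 (adjusted p = 0.026) in Npm1c and -0.62 ± 0.15 (adjusted p = 0.0145) in neutrophils. Idh1, the cytosolic enzyme, was lower in DM (2.53 and 1.30 kb) than in Npm1c (3.56 and 4.10 kb), -0.89 ± 0.22 (adjusted p = 0.0215), beside 2.20 and 2.02 kb in WT.

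In the last group, Arid1a and Phf6 had less H3K27ac in neutrophils. Arid1a held 7.33 and 7.17 kb in WT, 10.6 and 12.3 kb in Npm1c, 8.28 and 9.18 kb in Flt3-ITD, 9.41 and 6.47 kb in DM and 4.36 and 4.68 kb in neutrophils, -0.63 ± 0.19 (adjusted p = 0.0368). The broad region over its starts, chr4:133750064-133757898, spanned 5.47 and 5.53 kb in WT and 3.15 and 3.30 kb in neutrophils. Its H3K4me1 was 24 and 24 kb in WT and 17 and 19 kb in neutrophils, -0.41 ± 0.10 (adjusted p = 0.0379). H3K4me3 went the other way, 8 and 8 kb in neutrophils against 4 and 5 kb in WT, 7 and 8 kb in Npm1c, 7 and 8 kb in Flt3-ITD and 4 and 5 kb in DM, 0.77 ± 0.15 (adjusted p = 0.0203). The H3K4me3 rise was lost without WT replicate 1 or either neutrophil replicate and with thinned peaks. Phf6 had 1 H3K27ac region, chrX:52911807-52914009, with 1.82 and 1.79 kb in WT, 2.19 and 2.16 kb in Npm1c, 1.97 and 2.13 kb in Flt3-ITD, 1.91 and 1.36 kb in DM and 0.905 and 0.964 kb in neutrophils, -0.69 ± 0.13 (adjusted p = 0.00587). Smarca4 lost an H3K4me3 peak: 2 and 2 kb in WT and 1 kb in the other 8, the difference being a peak at chr9:21626973-21628021, 11.3 kb after the start, in both WT libraries only. Its H3K27ac ran from 1.55 to 2.38 kb over the 10 libraries. Nsd1 and Setd2, which methylate H3K36, were not called. The Nsd1 difference of neutrophils in H3K27ac was 0.35 (95% interval 0.04 to 0.65) and that of Setd2 -0.20 (95% interval -0.56 to 0.17).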

How the data were processed

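ChIP-seq peak lists of H3K4me1, H3K4me3 and H3K27ac were analysed for 30 libraries, 2 per group and mark. No peak list was used for the 5 input libraries. Per the submitters' processing notes, the authors used Bowtie2 2.1.0, Picard, HOMER and MACS2 with mm10. The deposited lists name HOMER or MACS2 and hold chromosome, start and end only, with no score or read count. The calling thresholds and the handling of inputs were not given in the sources used here. Each list was called per library, so its length enters every value, and no scaling was applied in the values as reported.

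Covered bp per gene were summed over RefSeq gene spans (GRCm38.p6, the assembly of mm10) with flanks of 10 kb, or 5 kb for H3K4me3. Exons were not used here. Limma 3.58.1 (R 4.3.3) was fitted to log2(bp + 500) with eBayes and a trend, all 5 groups in 1 fit without covariates, over genes covered in at least 2 libraries, for 6 comparisons and the interaction. The script was tested on simulated data with planted changes. Genes without any spread were given the median spread there, so that test did not cover genes with equal replicates. Merged regions joined overlapping peaks of the 10 libraries of a mark. Members and lists were chosen with earlier results of these data known. Values per library are given for called members, and promoters for the 2 largest rises, the 2 largest falls and 2 genes of steady H3K27ac. Alternatives covered centring, pseudocounts of 100 and 2000 bp, flanks, filters, peak width, thinning of peaks, robust eBayes, a replicate block and leaving out each library.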

Additional observations from a re-analysis of the deposited data

Results flagged for a closer look

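The interaction term in limma asks whether the effect of Npm1c differed with the Flt3-ITD background. It was called at 8 genes (DM minus Npm1c minus Flt3-ITD plus WT, log2 scale, Benjamini-Hochberg adjusted over all genes). None of these 8 calls was kept after centring or with peak lists thinned at random to equal length. For H3K27ac the interaction was -1.10 ± 0.21 (adjusted p = 0.02) at Idh2, where DM held 1.22 and 1.11 kb, both single mutants more (1.33 and 1.67 kb in Npm1c and 1.59 and 1.77 kb in Flt3-ITD) and WT 0.657 and 0.776 kb. At Kdm6b it was -0.93 ± 0.21 (adjusted p = 0.0301), with 7.54 and 6.66 kb in DM beside 9.72 and 9.78 kb in Npm1c. At Dot1l it was -0.66 ± 0.15 (adjusted p = 0.0322), with DM again below the Npm1c pair. At Asxl1 it was -1.14 ± 0.31 (adjusted p = 0.0468), with 2.86 and 1.74 kb in DM, 6.30 and 4.71 kb in Npm1c and 3.76 and 3.54 kb in WT. These are 4 of 41 members, a smaller share than the 17.5% of all genes with a negative H3K27ac interaction. Over all genes tested its median was -0.46. After centring none of these 4 was called, and none of the 41 was without either WT replicate or Flt3-ITD replicate 2.

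For H3K4me3 the interaction was -1.36 ± 0.21 (adjusted p = 0.0182) at Arid1a, with 4 and 5 kb in WT, 7 and 8 kb in Npm1c, 7 and 8 kb in Flt3-ITD and 4 and 5 kb in DM. The DM pair thus equalled the WT pair while both single mutants were higher. The interaction at Kmt2d was -0.51, at Smarca4 0.74 and at Tet2 0.47. These 3 rest on 1 peak per library with almost no spread between replicates, so their small adjusted p-values carry little weight on their own, and none of the 4 H3K4me3 calls was kept after centring. Over all genes the H3K4me3 interaction was positive in 1.96% and negative in 3.78%.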

How the results depend on the processing

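The number of the 41 genes called was computed for 21 combinations of mark and comparison. Pseudocounts of 100 and 2000 bp and robust eBayes left each within 1.5 times its value. Centring each library on its median gene moved H3K27ac from 8 to 0 for Npm1c, 4 to 8 for DM, 16 to 6 for DM against Npm1c, 0 to 1 for DM against Flt3-ITD and 4 to 1 for the interaction. It moved H3K4me1 from 11 to 3 for DM and 4 to 1 for DM against Flt3-ITD. For H3K4me3 it moved 1 to 0 for Npm1c, 4 to 0 for Flt3-ITD, 4 to 1 for DM, 5 to 3 for neutrophils, 3 to 1 for DM against Npm1c, 2 to 0 for DM against Flt3-ITD and 4 to 0 for the interaction. With peaks thinned at random to equal numbers, fewer peaks entered each list. H3K27ac calls became 0 for Npm1c, 0 for DM, 4 for neutrophils, 2 for DM against Npm1c and 0 for the interaction, and H3K4me1 calls 2, 3, 3 and 1 for DM, neutrophils, DM against Npm1c and DM against Flt3-ITD. H3K4me3 calls became 0 for Npm1c, 1 for Flt3-ITD, 1 for DM, 2 for neutrophils, 1 for DM against Npm1c, 0 for DM against Flt3-ITD and 0 for the interaction. The gene span alone gave H3K27ac 1 call for DM and 9 for neutrophils, H3K4me1 2 for the interaction, and H3K4me3 8 for neutrophils and 5 for DM against Npm1c. Without a filter H3K27ac gave 3, 1, 9 and 8 calls for Npm1c, DM, neutrophils and DM against Npm1c, and with peaks of at least 500 bp 2, 0, 8 and 7. The cause of these shifts was not tested.

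Leaving out 1 library gave for H3K27ac 0 to 3 calls for Npm1c, 0 to 8 for DM, 2 to 5 for neutrophils, 5 to 28 for DM against Npm1c, 0 to 7 for DM against Flt3-ITD and 0 to 25 for the interaction. H3K4me1 gave 5 to 8 for DM, 3 to 6 for neutrophils, 4 to 8 for DM against Npm1c, 2 to 6 for DM against Flt3-ITD, and 0 to 1 for Npm1c, for Flt3-ITD and for the interaction. H3K4me3 gave 1 to 5 for Npm1c, 4 to 5 for Flt3-ITD and for DM, 3 to 4 for neutrophils, 3 to 7 for DM against Npm1c, 2 to 3 for DM against Flt3-ITD and 3 to 9 for the interaction. The group left with 1 library was assumed to vary like the others. With the replicate number as a block, 4 members were called for H3K27ac in Npm1c and 1 for its interaction, and the other counts stayed within 1.5 times. Deviations of same-numbered libraries correlated by -0.23 to 0.28 between groups. These values also carry the unequal lengths of the lists, so they cannot decide whether same-numbered libraries were paired.

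Directions reversed in 10 cases. Centring turned Suz12 H3K27ac to -0.073 for Npm1c and 0.063 for DM against Npm1c, Asxl2 to 0.0074 for DM against Npm1c, and the Kmt2d H3K4me3 interaction to 0.072. Thinning turned Kdm2b H3K27ac to -0.10 and Suz12 to -0.92 for Npm1c, and Suz12 to 0.66 for DM against Npm1c. The gene span alone turned H3K27ac for DM at Bap1 to 0.018 and at Ezh1 to 0.051, and for neutrophils at Ezh1 to 0.074. Of 34 genes, 14 to 22 had H3K4me1 at the start with an overlap of at least 500 bp, and 33 to 34 with a 2 kb window. With no read counts, a peak missed at low depth cannot be told apart from a region without the mark.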
